A study of Mus musculus with 48 samples.

Results

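The 6 libraries described here compare vAbl cells with and without Ku70: 3 came from WT cells and 3 from Ku70-/- cells, all given the DNA ligase inhibitor L67 (5 μM) together with STI-571 (3 μM) for 96 h, and all read from the Jκ1 coding end. They were chosen by their labels for treatment, bait and genotype, and are 6 of the 48 libraries of the series. The vAbl cells are mouse pro-B cells transformed by the Abelson kinase, which STI-571 blocks, so that the cells arrest in G0-G1 and start V(D)J recombination of the Igκ locus. Every library was made by HTGTS-JoinT-seq, which amplifies outward from 1 fixed "bait" DNA end and records the "prey" sequence joined to it. The same bait was read in 3 libraries of each genotype given STI-571 with DMSO instead of L67, and in 3 of each from cycling cells with neither. Each genotype was represented by 1 cell line as far as the methods state, so that a difference between genotypes cannot be told apart from a difference between the lines. The sources used here do not say whether the L67 libraries came from separate cultures, and the labels give no replicate numbers, so that p-values measure only the spread between these libraries, which may be technical.

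In V(D)J recombination the RAG1/2 nuclease cuts between a gene segment and its recombination signal sequence, which begins with the heptamer CACAGTG. The cut leaves a coding end sealed as a hairpin and a blunt signal end. Classical nonhomologous end joining (NHEJ) starts with Ku70 and Ku80 binding the ends, and seals them with DNA ligase 4. Cells without Ku70 depend on alternative end joining (A-EJ), for which DNA ligases 1 and 3, the targets of L67, are the known candidates. From the Jκ1 coding end, a joint to a Vκ coding end is the normal product (coding joint), and a joint to the signal end cut from a Vκ segment is a hybrid joint.

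The break at Jκ1 is shown first, since every junction begins at it, in the direction in which the bait is read. Coordinates are of mm9, and the heptamer is in capitals with the coding end to its left. Igkv1-135 is shown as the most used site of Ku70-/- cells, Igkv3-2 as a site that they lacked, Igkv3-1 as its nearest neighbor that they used, and Iglv1 as a break on another chromosome.
Igkj1 (chr6:70672517-70672605, minus strand): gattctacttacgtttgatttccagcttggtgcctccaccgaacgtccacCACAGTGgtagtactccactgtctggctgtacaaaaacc
Igkv1-135 (chr6:67560473-67560541, plus strand): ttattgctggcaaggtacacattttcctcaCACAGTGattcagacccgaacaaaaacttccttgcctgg
Igkv3-2 (chr6:70649032-70649100, plus strand): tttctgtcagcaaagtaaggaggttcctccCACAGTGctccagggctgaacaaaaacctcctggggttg
Igkv3-1 (chr6:70654142-70654210, plus strand): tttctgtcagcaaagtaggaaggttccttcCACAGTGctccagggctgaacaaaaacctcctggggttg
Iglv1 (chr16:19085085-19085134, minus strand): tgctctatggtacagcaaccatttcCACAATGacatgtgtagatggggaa

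Representative joints are shown as read from the bait, chosen as the commonest joint of their kind that was present in all 3 libraries of a genotype. Capitals mark the inserted bases, the bases shared by both ends, or, in a direct joint, the last bait base and the first prey base. The WT joints kept nearly the whole Jκ1 end (…gtccac), and the Ku70-/- joints had lost bases from it.
WT, Igkv12-44, direct coding joint with no base lost from Jκ1: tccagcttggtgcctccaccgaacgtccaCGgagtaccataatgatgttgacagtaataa
WT, Igkv12-44, coding joint with 3 inserted bases: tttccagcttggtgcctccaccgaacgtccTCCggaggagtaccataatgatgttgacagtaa
WT, Igkv16-104, coding joint with 2 shared bases: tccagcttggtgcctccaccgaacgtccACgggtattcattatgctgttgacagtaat
Ku70-/-, Igkv3-10, direct coding joint with 4 bases lost from Jκ1: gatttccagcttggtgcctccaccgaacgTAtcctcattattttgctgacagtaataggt
Ku70-/-, Igkv12-46, coding joint with 2 shared bases: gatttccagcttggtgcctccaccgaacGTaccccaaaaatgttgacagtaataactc
Ku70-/-, Igkv11-125, direct hybrid joint with 19 bases lost from Jκ1: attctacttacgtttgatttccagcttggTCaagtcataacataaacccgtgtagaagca
Ku70-/-, Igkv16-104, hybrid joint with 2 shared bases: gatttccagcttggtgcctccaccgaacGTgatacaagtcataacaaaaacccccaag

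Each library was brought down to 500000 read pairs by the authors before mapping, so that counts come from equal numbers of read pairs. Listed junctions repeat to different extents in the genotypes, as described below. Under L67 the WT libraries listed 357131, 350141 and 359140 junctions, and the Ku70-/- libraries 163731, 168782 and 172341. The 95% Wilson interval was at most ±0.287 percentage points for shares of the read pairs, all junctions or Vκ junctions of a library. It takes every listed junction as an independent draw, although listed junctions repeat. It therefore understates the counting error, and it covers no other spread. Shares of smaller sets have wider intervals, such as those of hybrid joints, insertions, single sites, classes of end loss or the few junctions off chromosome 6. The genotypes were compared over 22 measures per library with exact two-sided permutation tests. With 3 libraries against 3 the smallest p that such a test can give is 0.1, or 0.105 after Benjamini-Hochberg adjustment over the 22, so that no difference could pass 0.05. All of the 22 measures but 1, the share of inversional sites, had no overlap between the genotypes and took these smallest exact permutation values.

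V-J recombination under L67 was lower in Ku70-/- cells, when every listed junction was counted. The V-J efficiency, which counts junctions up to 200 bp from a Vκ break per 100 read pairs, was 66.7%, 65.0% and 67.3% in the WT libraries. It was 23.2%, 24.4% and 24.9% in the Ku70-/- libraries, each below every WT library. WT libraries averaged 66.3% ± 1.24 and Ku70-/- libraries 24.1% ± 0.843 (SD, n = 3), a difference of -42.2 percentage points. In cycling cells, in which little recombination is induced, the efficiency was 4.03% to 5.88% in WT and 0.936% to 1.23% in Ku70-/- libraries. The yield therefore exceeded the cycling background in both genotypes under L67.

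The order of the yields depended on how repeated junctions were counted. The lists keep duplicates, and each distinct Vκ junction (1 prey position and strand with 1 bait end and 1 overlap or insertion length) was listed 26.8 to 29.96 times in WT libraries and 6.84 to 11.1 times in Ku70-/- libraries. There were 12183, 10839 and 12551 distinct Vκ junctions in WT and 16958, 14842 and 11226 in Ku70-/- libraries. Counted once each, they gave 2.37% ± 0.180 in WT and 2.87% ± 0.580 in Ku70-/- cells (SD, n = 3), the opposite order, with overlapping groups (exact permutation p = 0.3). Independent joints that are alike in all of these features were merged by this count, so that it is a number of kinds of joint rather than of joints. The values that follow count every listed junction unless they are said to be counted once.

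**Figure D1:**
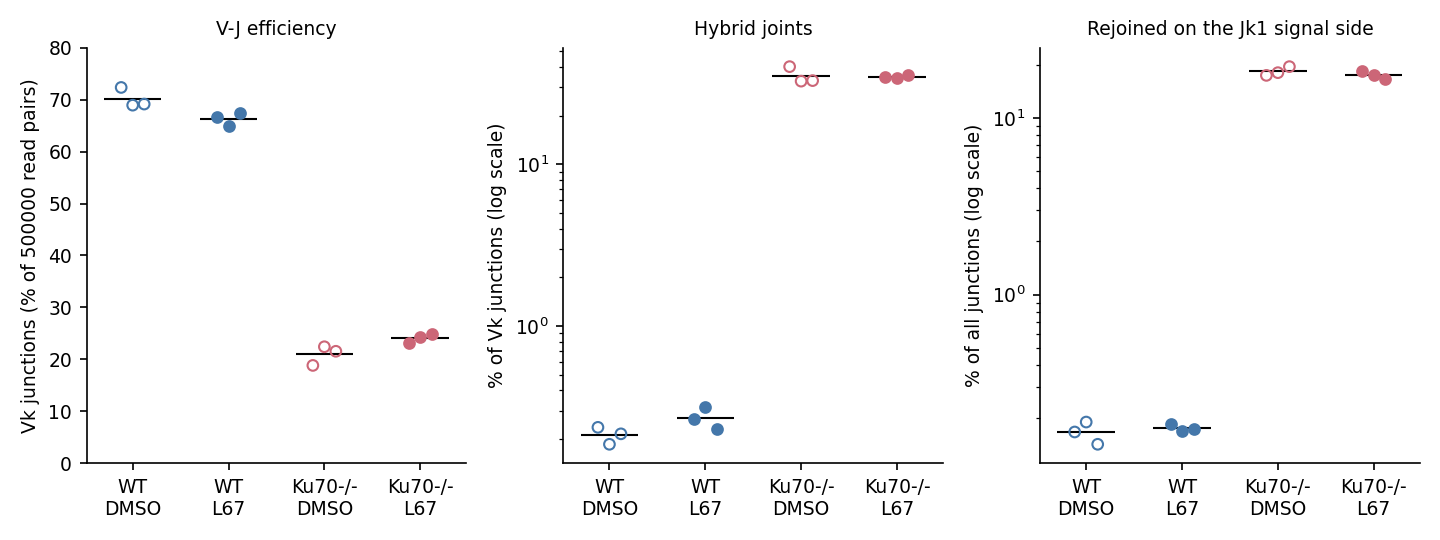
V-J efficiency (percent of read pairs), hybrid share of Vκ junctions (percent, log axis) and share of junctions rejoined at Jκ1 (percent, log axis) in each library, with open points for DMSO, filled points for L67 and lines for the means of 3. Under L67 the WT libraries sit at 65.0% to 67.3% V-J efficiency and the Ku70-/- libraries at 23.2% to 24.9%, and the order is the opposite for hybrid and rejoined junctions.

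Hybrid joints were common in Ku70-/- cells and rare in WT cells. Their share of the Vκ junctions was 0.267%, 0.317% and 0.232% in the WT libraries and 35.0%, 34.1% and 35.8% in the Ku70-/- libraries. The mean number of coding joints was 330774 in WT and 78533 in Ku70-/- libraries, while that of hybrid joints was 899 and 42183. Ku70-/- libraries thus listed fewer coding joints and more hybrid joints from the same number of read pairs. The ratio of coding to hybrid joints was 373 ± 57.9 in WT and 1.86 ± 0.0681 in Ku70-/- cells (SD, n = 3), a log2 difference of -7.63. Counted once each, hybrid joints were 1.40% and 37.9% of the distinct junctions.

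In Ku70-/- cells the hybrid share was higher at Vκ segments in 1 of the orientations. Deletional segments lie in the same orientation as Jκ1 and inversional segments in the opposite one. It was 27.6% ± 2.06 at deletional sites and 39.8% ± 0.566 at inversional sites (SD, n = 3), with every library higher at inversional sites. In WT cells it was 0.254% ± 0.0154 and 0.284% ± 0.0626. The difference between orientations was not tested.

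The lower ratio of coding to hybrid joints was seen at nearly every Vκ site tested. Of 104 sites with at least 50 junctions on average in both genotypes, 101 (97.1%) had a lower ratio of coding to hybrid joints in Ku70-/- cells by limma at a Benjamini-Hochberg adjusted p of 0.05. The other 3, Igkv6-29, Igkv8-18 and an unannotated site, had hybrid shares in Ku70-/- cells with SDs of 17.9 to 46.2 percentage points, wider than their means. The mean hybrid share of a site in Ku70-/- cells ran from 8.87% to 70.1% with a median of 34.2%, and 5 sites lay above 50%. Igkv8-16 was among them, with 68.3%, 67.3% and 74.8% hybrid joints in the Ku70-/- libraries. Igkv3-1, the Vκ segment nearest to Jκ1, lay at the low end with 14.6%, 8.34% and 11.1%.

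Both ends of the joints were trimmed further in Ku70-/- cells. Of the Vκ junctions within 100 bp of the break, 97.7%, 98.1% and 97.6% lay within 10 bp of it in the WT libraries and 43.1%, 42.8% and 43.3% in the Ku70-/- libraries. The median distance was 3 bp in each WT library and 13 bp in each Ku70-/- library, and the 90th percentile was 5 bp against 38.3 bp on average. Counted once each, 76.5% ± 0.939 of WT and 33.7% ± 1.07 of Ku70-/- junctions lay within 10 bp, and the 90th percentile was 18 bp and 41.7 bp, so that the WT tail was longer by that count while the order stayed. Hybrid joints showed the same order as coding joints, with 96.8% ± 1.10 of WT and 45.5% ± 0.629 of Ku70-/- hybrid joints within 10 bp (SD, n = 3). Prey coding ends without any loss made up 18.5% ± 0.228 of WT and 0.823% ± 0.231 of Ku70-/- coding joints.

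**Figure D2:**
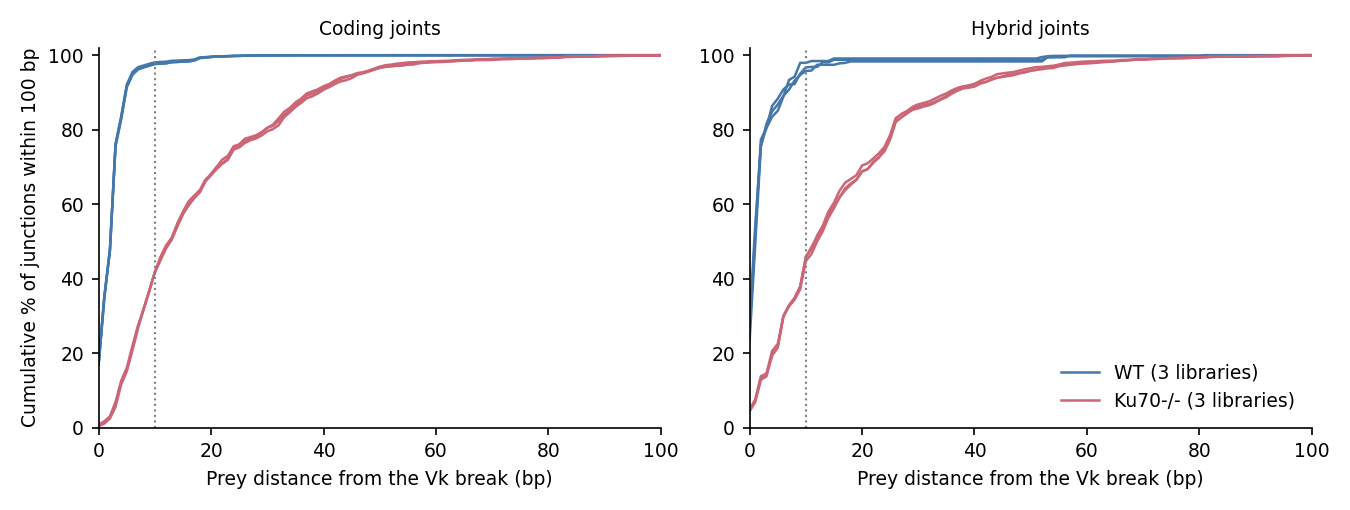
Cumulative share of Vκ junctions (percent) against the distance of the junction from the prey break (bp), for coding and hybrid joints, with a line per library under L67 and a dotted line at 10 bp. The WT lines have nearly reached the top at 10 bp, and the Ku70-/- lines have not. With coding and hybrid joints pooled, 97.8% of WT and 43.1% of Ku70-/- junctions lay within 10 bp on average.

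At the bait side, the Jκ1 coding end kept all of its bases in 41.7%, 41.6% and 41.2% of the Vκ joints of WT libraries and in 0.981%, 1.19% and 0.973% of those of Ku70-/- libraries. The median loss was 1 base in each WT library and 15 bases in each Ku70-/- library. A loss of 54 bases still held 1.24% of Ku70-/- joints on average, while losses of 55 to 100 bases were absent from every library. The record thus appears cut off at 54 bases, and joints with longer losses may be missing from these values and from the yields. This was not tested. Losses of more than 10 bases occurred in 0.137% ± 0.00458 of WT and 64.4% ± 0.709 of Ku70-/- joints (SD, n = 3), or in 1.01% and 70.8% counted once each. The losses of Ku70-/- joints were not spread evenly, and fell at the same positions of the Jκ1 end in each library. Losses of 4, 5 and 6 bases held 6.22%, 7.02% and 4.62% of the joints on average, losses of 9 and 10 bases 5.29% and 6.15%, and a loss of 16 bases 9.63%, while a loss of 7 bases held 0.748% and a loss of 12 bases 0.949%. Both a bait and a prey end without loss were joined in 3.35% ± 0.180 of WT and 0.102% ± 0.0589 of Ku70-/- coding joints.

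Joint structures differed as well. Joints were classed as direct, with inserted bases, or with microhomology (MH), that is, with bases that match both ends. Direct joints made up 69.6%, 70.4% and 69.6% of WT and 52.7%, 52.8% and 52.9% of Ku70-/- Vκ joints. Insertions made up 15.5%, 14.7% and 15.1% of WT joints and 2.43%, 2.71% and 2.22% of Ku70-/- joints. MH of more than 1 bp was found in 2.43%, 2.50% and 2.58% of WT joints and in 18.2%, 17.4% and 17.9% of Ku70-/- joints. Ku70-/- cells thus had more MH and fewer insertions, with no overlap between the groups. Counted once each, direct joints came to 27.0% in WT and 48.2% in Ku70-/- cells, the opposite order, and insertions to 62.5% and 12.3%, while MH of more than 1 bp kept its order with 4.13% and 16.7%.

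**Figure D3:**
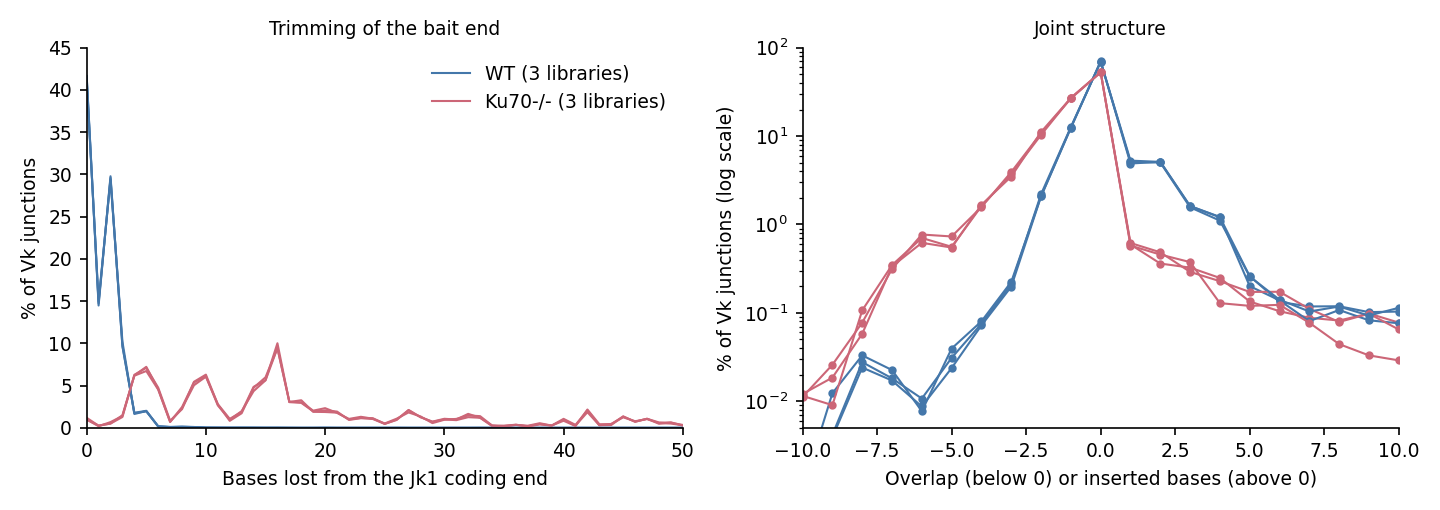
Bases lost from the Jκ1 coding end (percent of Vκ joints by number of bases) and length of overlap or insertion at the joint (percent of Vκ joints, log axis), with WT and Ku70-/- libraries under L67. WT joints gather at losses of 0 to 3 bases, and Ku70-/- joints show separate peaks such as 7.02% at 5 bases and 9.63% at 16 bases.

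Inserted bases can be palindromic (P nucleotides), which arise when a hairpin is opened away from its tip and are the mirror of the untrimmed end. Of the insertions of 1 to 4 bases, 60.9%, 61.8% and 61.8% were palindromic in WT and 24.1%, 30.4% and 31.8% in Ku70-/- libraries. Counted once each, the palindromic share was 25.1% ± 0.773 in WT and 5.54% ± 1.17 in Ku70-/- cells (SD, n = 3), lower in both genotypes and in the same order. Only an insertion next to an end with no base lost could be scored as palindromic, and such ends were rarer in Ku70-/- cells. The difference in this share therefore cannot be told apart from the difference in trimming. In the WT joint of Igkv12-44 printed above, the inserted bases follow a Jκ1 end that had lost 2 bases, and mirror the uncut Vκ end. A few sequences held much of the MH. Of the listed overlaps of 2 bases or more, AC made up 57.0% and GT 17.9% in WT, and GT 12.9% and CC 9.98% in Ku70-/- cells. Most of the WT value for AC came from 1 joint, that of Igkv16-104 printed above, with 9887 of the 14182 listed AC overlaps. These overlap sequences were not counted once. The GT overlap most often went with 4 bases lost from Jκ1 in both genotypes, as in the Ku70-/- joint of Igkv12-46, and CC with 16 bases.

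MH was also counted by how much of Jκ1 was lost. Among Ku70-/- Vκ joints that had lost 1 to 10, 11 to 20 or over 20 bases, MH of more than 1 bp ran from 16.3% to 19.8% over all libraries and classes. In WT cells it was 1.30%, 1.26% and 1.30% among joints that had lost 1 to 10 bases and 12.1%, 8.27% and 13.8% among the 347 to 375 joints per library that had lost 11 to 20. The 83 to 95 WT joints per library that had lost over 20 bases held 2.11%, 28.9% and 42.05%. The share thus differed between these classes in WT cells more than in Ku70-/- cells, which was not tested. Joints with no base lost, 41.2% to 41.7% of WT Vκ joints, are outside these classes, so that the classes do not cover all WT MH. The AC overlap, the commonest in WT cells, most often went with no loss. All of these are listed junctions and were not counted once. Hybrid joints gave a different order from coding joints. In WT cells 64.6%, 57.9% and 65.9% of hybrid joints had MH of more than 1 bp, against 20.9%, 20.3% and 19.8% in Ku70-/- cells. The WT values rest on 178, 147 and 175 distinct hybrid junctions, listed 890, 1028 and 780 times.

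Vκ usage was compared as shares of the Vκ junctions over 137 break sites, of which 95 carry an annotated gene. The locus is divided into sub-TADs (sTADs), regions of preferred chromatin contact, with sTAD5 nearest to Jκ1 and sTAD1-2 farthest from it. The distal sTAD1-2 held 14.3%, 14.1% and 14.4% of WT and 20.7%, 20.1% and 20.3% of Ku70-/- Vκ junctions. The proximal sTAD5 held 41.4%, 40.9% and 40.2% of WT and 35.5%, 34.4% and 34.6% of Ku70-/- junctions. The share of listed junctions was thus higher in the distal sTAD and lower in the proximal sTAD in Ku70-/- cells, and the latter rested on how the 5 proximal sites described next and repeated junctions were treated. Without these 5 sites the difference in sTAD5 shrank from -6.01 to -1.31 percentage points, and that in sTAD1-2 from 6.11 to 4.97. In between, sTAD3 held 16.8% ± 0.381 and 18.6% ± 0.480, and sTAD4 28.1% ± 0.313 and 26.2% ± 1.37 (SD, n = 3). Inversional sites held 59.4% ± 0.260 of WT and 60.4% ± 0.804 of Ku70-/- junctions, with overlapping groups (exact permutation p = 0.2, 0.2 after adjustment). That small difference turned to -3.76 points without those 5 sites. Counted once each, the differences were -2.16 points in sTAD5 and -5.55 in sTAD4, both without overlap. With both changes together sTAD5 turned to the opposite order, with 30.4%, 30.3% and 30.2% in WT and 31.5%, 30.8% and 31.6% in Ku70-/- libraries, while sTAD1-2 stayed higher by 4.60 points.

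Between Igkv3-1 and the rest of the locus, 5 neighboring sites were all but missing from Ku70-/- cells. Igkv3-7, Gm16774, Igkv3-4, Igkv3-3 and Igkv3-2 are deletional and lie 114.5, 58.7, 50.2, 35.0 and 23.5 kb from Jκ1, and together took 73.7 of 1000 WT Vκ junctions. The 3 Ku70-/- libraries held 8 junctions at these sites among 362147. Igkv3-2 was the most used site in WT cells, with 10534, 9747 and 9676 junctions, and had 0 in each Ku70-/- library. Igkv3-3 was also at 0, Igkv3-7 had 2 junctions, Gm16774 had 1 and Igkv3-4 had 5. Since listed junctions repeat, the size of the difference was bounded with each distinct junction counted once. Igkv3-2 then had 158, 146 and 147 in the WT libraries, or 12.7 per 1000 distinct Vκ junctions on average. A count of 0 among the 43026 of Ku70-/- cells allows up to 0.0697 per 1000 over the 3 libraries (3 counts), so that Igkv3-2 was at least 182-fold lower and Igkv3-3 at least 38.4-fold lower. The 5 sites together took 45.1 per 1000 distinct junctions in WT and 0.186 in Ku70-/- cells, which was 243-fold lower (95% counting interval 123 to 562).

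Igkv3-1, 18.4 kb from Jκ1 and so nearer to it than all 5, was used in both genotypes. It took 8.06, 8.14 and 6.93 per 1000 WT Vκ junctions and 6.32, 6.69 and 7.001 per 1000 Ku70-/- ones (log2 difference -0.21, SE 0.09, limma adjusted p = 0.14). The absence was not particular to L67: the DMSO libraries of Ku70-/- cells had 4 junctions at the 5 sites and the cycling ones 0, where WT cells had 87636 and 7210. Whether the sites are present in the Ku70-/- line was not tested. These sites were known from earlier results of these data and were not chosen by the present comparison.

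By limma on 111 sites with at least 50 junctions on average over the 6 libraries, 44 sites (39.6%) changed in usage at an adjusted p of 0.05, of which 19 (17.1%) were higher and 25 (22.5%) lower in Ku70-/- cells, and none of the 44 overlapped between groups. Over all 111 sites, 61 (55.0%) did not overlap, and the median log2 difference was -0.12. In sTAD1-2, 8 of 20 sites rose and 4 fell, in sTAD3 6 of 24 rose and 3 fell, in sTAD4 3 of 28 rose and 9 fell, and in sTAD5 2 of 39 rose and 9 fell. The 5 proximal sites are 5 of the 9 falls in sTAD5 and 5 of the 25 lower sites. They met the minimum of junctions only through the WT libraries, so that their calls add nothing to what was described above. Usage is a share, so that a change at strongly used sites moves the shares of the others, and with 5 sites missing from Ku70-/- cells the comparison is of this unbalanced kind. The 44 are therefore differences in share and need not be differences in the number of joints. With the 5 missing sites left out of the total, 17 sites were higher and 34 lower. The number of lower sites fell to 15, 16 and 15 when the 1st, 2nd or 3rd WT library was left out, and in a fit that also held the DMSO libraries 9 sites were higher and 8 lower.

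Of the 8 largest rises, 4 were at distal sites in sTAD1-2, 1 in sTAD3, 1 in sTAD4 and 2 in sTAD5. Igkv1-135, 3112 kb from Jκ1, took 23.9, 21.2 and 23.2 per 1000 WT junctions and 50.5, 53.0 and 59.3 per 1000 Ku70-/- ones (log2 difference 1.25, SE 0.09, limma adjusted p = 0.000208). It ranked 10th among WT sites and 1st among Ku70-/- sites. Igkv17-127 rose from 1.27 to 4.08 per 1000, and Igkv11-125, which is not among the 8 largest, from 13.0 to 29.99. The neighbors Igkv9-124 and Igkv9-123, at the low end of WT usage with 1.73 and 0.624 per 1000, reached 10.2 and 3.55 in Ku70-/- cells (log2 differences 2.55 and 2.50). Igkv8-16, in sTAD5, rose from 4.42 to 18.8 per 1000. Igkv13-84, Igkv10-95 and an unannotated site 482.1 kb from Jκ1 had log2 differences of 1.83, 1.32 and 1.71, the last of which no longer passed with coding joints alone (0.67). Of the 8 largest rises, all but that of Igkv1-135 were smaller when each junction was counted once. Igkv9-124 was then 2.72-fold higher in place of 5.87-fold, Igkv9-123 2.19-fold in place of 5.68-fold, and Igkv8-16 2.49-fold in place of 4.26-fold. The log2 difference of Igkv8-16 was 1.00 with coding joints alone. For Igkv17-127, Igkv13-84, Igkv10-95 and the unannotated site the folds were 1.58, 1.88, 1.72 and 2.03 in place of 3.22, 3.47, 2.51 and 3.15. Igkv1-135 and Igkv11-125 came to 2.66 and 2.93 in place of 2.38 and 2.30.

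The 5 proximal sites were the 5 largest falls, and the next 3 were these. Igkv8-24 took 16.7, 16.6 and 15.2 per 1000 WT and 11.2, 8.43 and 8.30 per 1000 Ku70-/- junctions (log2 difference -0.81, SE 0.14, limma adjusted p = 0.0052), and differed by -0.26 counted once. Unannotated sites 678.5 and 1259.4 kb from Jκ1 fell by 1.35 and 0.86 on the log2 scale. Several of the most used sites did not pass the threshold. Igkv12-44, ranked 2nd in both genotypes, took 28.7 ± 0.650 per 1000 WT and 33.0 ± 6.62 per 1000 Ku70-/- junctions (SD, n = 3), but counted once it took 13.5 and 24.3 per 1000 and passed (log2 difference 0.84). Igkv4-50 took 27.7 and 26.9, Igkv1-117 26.7 and 26.2, Igkv3-12 28.3 and 24.7 and Igkv6-32 25.9 and 30.5 per 1000. Of these, Igkv4-50, Igkv1-117 and Igkv6-32 were higher in Ku70-/- cells and passed when counted once (log2 differences 0.32, 0.43 and 0.28). That count is of kinds of joint, and at Igkv12-44 these numbered 161, 152 and 167 in WT and 456, 328 and 267 in Ku70-/- libraries. A rise by this count cannot be told apart from the wider range of end losses in Ku70-/- joints.

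**Figure D4:**
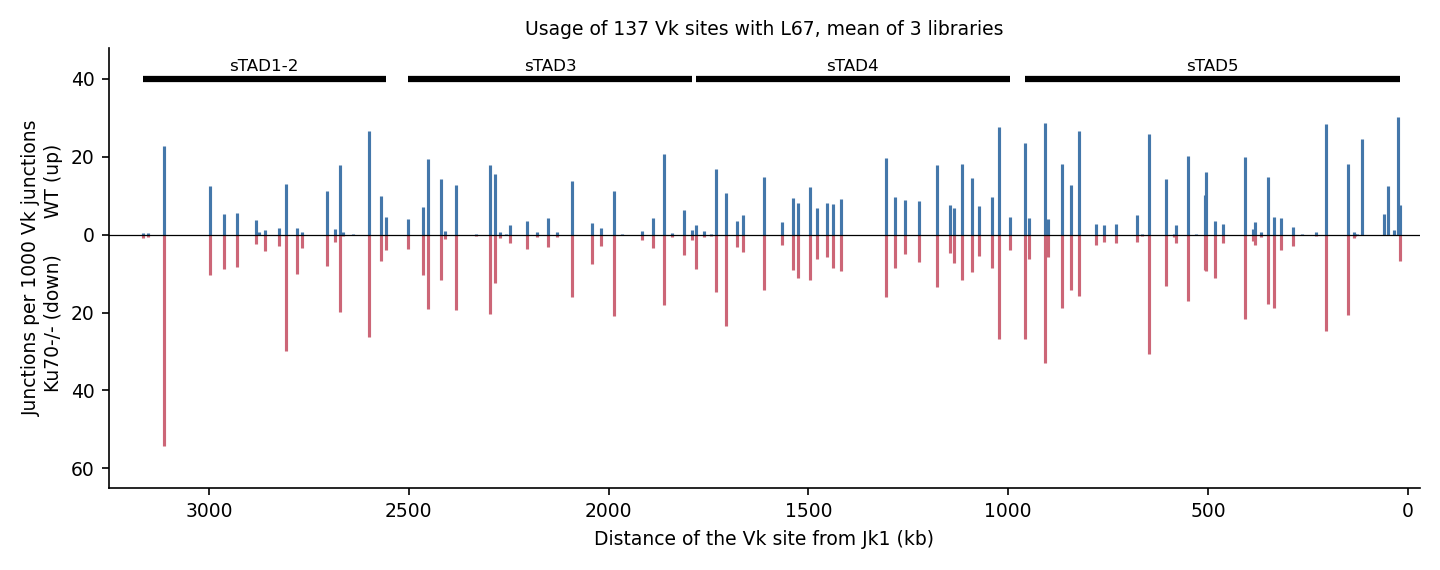
Usage of the 137 Vκ break sites (junctions per 1000 Vκ junctions, mean of 3 libraries) against the distance from Jκ1 (kb), with WT upward, Ku70-/- downward and bars for the sTADs. The WT peaks at 23.5 to 114.5 kb have no Ku70-/- counterpart, and the tallest Ku70-/- peak is Igkv1-135 at 3112 kb with 54.3 per 1000.

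Within 2 kb of the bait break lay 2.89%, 3.41% and 2.74% of all WT junctions and 22.5%, 21.4% and 20.8% of all Ku70-/- junctions, or 3.16% ± 0.235 and 13.3% ± 1.04 counted once. Most of those of Ku70-/- cells were Jκ1 coding ends joined back to the signal side of the same break. There were 664, 593 and 621 such rejoined junctions in WT and 30107, 29314 and 28646 in Ku70-/- libraries, or 0.176% ± 0.00872 and 17.5% ± 0.887 of all junctions (SD, n = 3). Counted once each they came to 48, 52 and 54 in WT and 1755, 1563 and 1429 in Ku70-/- libraries. In Ku70-/- cells these joints had lost 15 bases from Jκ1 and 12 to 13 bases from the signal side in the median, much as the Vκ joints had, and 18.1% to 19.1% had MH of more than 1 bp. The loss from both sides together was 26 to 28 bases in the median in Ku70-/- and 2 to 3 bases in WT libraries. Rejoining without any base change restores the uncut sequence and cannot be seen as a junction, so that the genotypes are compared on inexact rejoining only. Between 93.7% and 97.1% of the rejoined junctions came from the separate search of the bait region by the authors.

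The other Jκ segments showed a difference at Igkj3, a segment that is not used for functional κ chains in the mouse. Within 100 bp of its start there were 0 junctions in each WT library and 106, 58 and 103 in the Ku70-/- libraries. Counted once these were 14, 10 and 9, or 0.0649%, 0.0534% and 0.0616% of the distinct junctions, where a count of 0 allows up to 0.0214% to 0.0246% in a WT library (3 counts). In listed junctions Igkj4 was joined most often, with 4488, 4890 and 4283 in WT and 2783, 2709 and 3014 in Ku70-/- libraries. In distinct junctions Igkj2 was close to it in Ku70-/- libraries, with 320, 268 and 215. Counted once, the order at Igkj4 was the opposite, with 178, 139 and 162 against 319, 278 and 232. These were 1.31%, 1.14% and 1.15% of the distinct junctions in WT and 1.48%, 1.48% and 1.59% in Ku70-/- libraries. The Ku70-/- libraries listed fewer junctions in all, so that the listed counts at J segments are not shares. Igkj2 and Igkj5 also had fewer listed and more distinct junctions in every Ku70-/- library than in every WT library. The order of the listed counts did not carry over to shares. As shares of all listed junctions, Igkj4 and Igkj5 were higher in every Ku70-/- library than in every WT library, and Igkj2 overlapped. At Igkj2 the reads ran into the coding side in 277, 220 and 319 WT junctions and 1127, 1137 and 1219 Ku70-/- junctions, while those into the signal side numbered 2641, 3579 and 2197 against 646, 616 and 596. Counted once, the coding side had 25, 26 and 27 in WT and 217, 193 and 144 in Ku70-/- libraries, and the signal side 58, 61 and 57 against 103, 75 and 71. The signal side thus held most of the Igkj2 junctions in each WT library and the coding side in each Ku70-/- library by both counts, and the same was seen at Igkj4. It did not hold at Igkj5, where Ku70-/- libraries had 111, 96 and 105 distinct junctions on the coding side and 128, 100 and 73 on the signal side. These J segments were not tested.

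Junctions off chromosome 6 were few in both genotypes and more frequent in Ku70-/- cells, with 328, 543 and 336 in WT and 2180, 2375 and 2223 in Ku70-/- libraries (log2 difference of the means of log2 counts 2.53). Counted once each they came to 143, 218 and 171 against 457, 386 and 291, also without overlap. Per 1000 junctions of the library they were 1.13 ± 0.360 and 13.4 ± 0.594 listed, and 13.5 ± 3.84 and 20.6 ± 0.648 counted once (SD, n = 3). Part of the difference lay in the antigen receptor loci, whose share of off-chromosome 6 junctions was 12.6% ± 7.92 in WT and 34.2% ± 2.83 in Ku70-/- cells (SD, n = 3), or 4.18% and 27.2% counted once. Igl held nearly all of these in Ku70-/- cells. This is the λ light chain locus on chromosome 16, and had 24, 0 and 0 listed junctions in WT and 720, 858 and 625 in Ku70-/- libraries. In distinct junctions this was 4, 0 and 0 against 124, 103 and 70. Igh held 44, 13 and 7 against 9, 5 and 38, Tcra/Tcrd held 1, 16 and 31 against 7, 22 and 41, and Tcrg held 0 in every library. For Igh and Tcra/Tcrd the groups overlapped.

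The Igl junctions sat at RAG break sites. Of the 297 distinct Igl junctions of Ku70-/- cells, 98.3% lay within 200 bp of 6 break sites. These were the V sites of Iglv1, Iglv2 and Iglv3 and 3 J sites, at Iglc2, at Iglc3 and 1972 bases from Iglc3, its nearest annotated gene. Of the junctions near these sites, 188 were joined to the coding side and 104 (35.6%) to the signal side. Iglv1 held the most, with 53 coding and 30 signal junctions, followed by a J site at Iglc3 with 50 and 28. Iglv3, whose heptamer is CACAGTA, held 11 and 1. The break sites were located with these junctions, so that the share near them is a description.

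**Figure D5:**
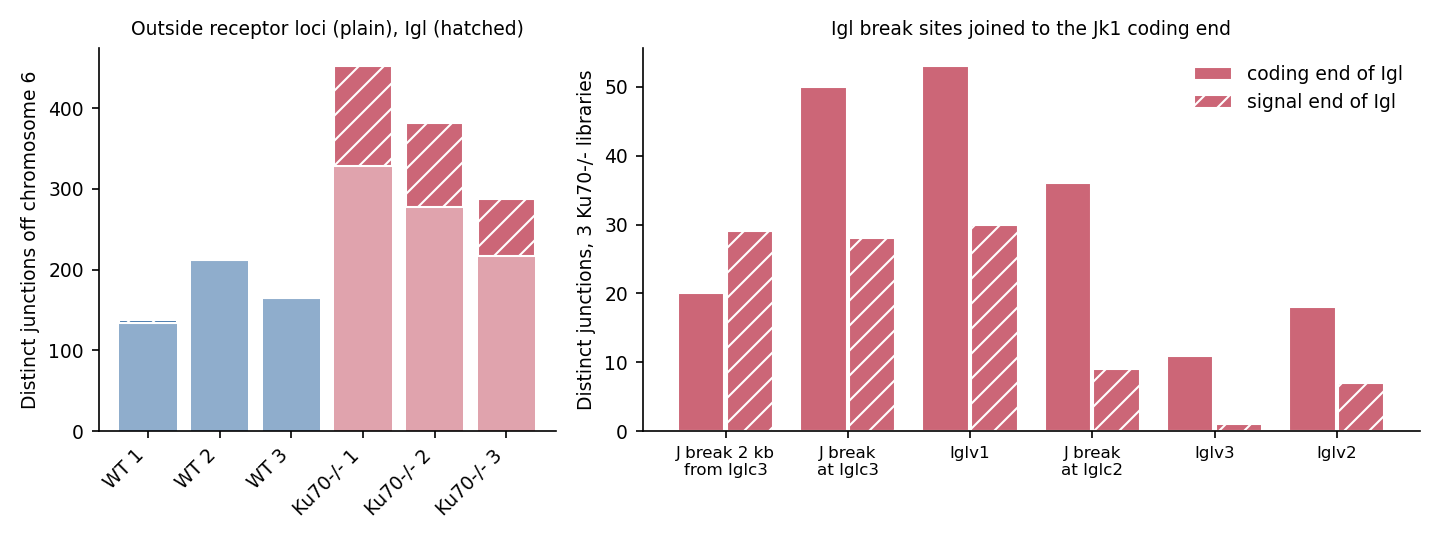
Distinct junctions off chromosome 6 in each library under L67 (count, plain for those outside the antigen receptor loci and hatched for Igl, without the few at Igh and Tcra/Tcrd), and distinct junctions of Ku70-/- cells at 6 Igl break sites by side joined (count). Igl adds 124, 103 and 70 to the 328, 278 and 217 plain ones of Ku70-/- libraries and 4, 0 and 0 to the 134, 212 and 165 of WT libraries.

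Outside the receptor loci, distinct junctions numbered 134, 212 and 165 in WT and 328, 278 and 217 in Ku70-/- libraries, with no overlap. Ku70-/- libraries also held more distinct junctions in all, and per 1000 of these the numbers were 9.86, 17.4 and 11.8 in WT and 15.2, 14.8 and 14.8 in Ku70-/- libraries, which overlapped. The junctions were scattered: 77.8% of the 374 occupied 1-Mb bins in WT and 77.5% of the 617 in Ku70-/- cells held a single junction. The largest counts of Ku70-/- cells in bins beyond Igl were 18 distinct junctions in mitochondrial DNA, against 0 in WT, and 10 in a bin at 3 to 4 Mb of chromosome 19, also against 0. MH off chromosome 6 differed in the same direction as at Vκ sites, with overlaps of more than 1 bp in 11.4% ± 3.22 of the distinct WT junctions and 23.5% ± 2.63 of the distinct Ku70-/- ones (SD, n = 3). Direct joints made up 29.3% of WT and 50.9% of Ku70-/- listed junctions off chromosome 6, the opposite of their order at Vκ sites in listed junctions, and 20.1% and 41.9% counted once, the same order as at Vκ sites by that count. Untrimmed Jκ1 ends made up 29.01% ± 7.87 of WT and 1.31% ± 0.737 of Ku70-/- listed junctions, or 34.9% and 3.64% counted once.

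The genotype contrast was also measured without L67. In the DMSO libraries the V-J efficiency was 72.4%, 68.9% and 69.2% in WT and 18.8%, 22.4% and 21.5% in Ku70-/- cells, so that under L67 all WT libraries were lower and all Ku70-/- libraries higher than their DMSO counterparts in listed junctions. The genotype difference shrank by 7.03 percentage points from -49.2 to -42.2 (exact permutation of treatment within genotype, p = 0.005, the smallest possible, 0.055 after adjustment over 22 measures). The total of junctions gave the same picture, with 375302 in WT and 145723 in Ku70-/- libraries on average under DMSO (exact permutation p = 0.005, adjusted 0.055). Neither held when each junction was counted once. The efficiency was then 2.39%, 2.23% and 2.30% in WT and 0.178%, 2.58% and 2.41% in Ku70-/- DMSO libraries, and under L67 it was higher by 0.067 points in WT and by 1.15 in Ku70-/- cells, with overlap in both (exact permutation p = 0.29, adjusted 0.63). The low Ku70-/- DMSO library, with 1446 distinct junctions against 16426 and 15283, is not among those that the study lists for this bait. Without it the change of Ku70-/- cells counted once was 0.376 points (exact permutation p = 0.525 for the difference between genotypes). The hybrid share of Ku70-/- cells was 35.3% ± 4.27 with DMSO and 34.9% ± 0.830 with L67, and the share within 10 bp 47.6% ± 3.78 and 43.1% ± 0.228 (SD, n = 3). Without that DMSO library the hybrid share under DMSO was 32.9%, which turned the change under L67 from -0.39 to 2.08 points, and the change in the share within 10 bp went from -4.49 to -2.37 points. No measure passed 0.05 after adjustment, which even the smallest possible p can do only if several measures come near it. Among 112 sites, the interaction of genotype and treatment passed at none (0.00%) by limma, with 3 at an unadjusted p under 0.05 and a smallest adjusted p of 0.67. That fit held the unlisted library, and its SE reached 3.09 on the log2 scale (Igkv5-48), so that it could miss large differences. Without that library no site passed either, with a smallest limma adjusted p of 0.27. In listed junctions, the genotype difference in efficiency without that library shrank by 5.97 points (exact permutation p = 0.01, adjusted 0.11).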

How the data were processed

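The authors demultiplexed and trimmed the reads, subsampled every library to 500000 read pairs (Seqtk) and mapped these to mm9, per the labels with Bowtie2, keeping duplicates. A script of theirs added junctions in the bait region. The deposited lists give 1 junction per line, with no normalized value. All counts, percentages and log2 values were computed here from these deposited lists. Break sites (137) were located from the signal end bait in WT cells given STI-571, as positions of 30 or more junctions with no higher position within 100 bp. That distance was raised from 50 bp after the data were seen, since 50 bp split Igkv8-24, and the search for Igl sites was loosened after it had placed the Iglv2 break inside the gene. sTAD bounds were read from a figure of the study. Insertions and overlaps were taken up to 20 bp. The antigen receptor loci were widened by 100 kb. Genes came from GENCODE vM1.

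Groups came from the labels, and the library is the replicate. Library measures were compared by exact two-sided permutation of library means, and against DMSO by permuting treatment within genotype (400 arrangements). Site usage was fitted with limma 3.58.1 in R 4.3.3 on log2 of junctions per 1000 Vκ junctions plus the value of 1 junction, and the ratio of coding to hybrid joints per site with 0.5 added. The study used analysis of variance. The members and lists were chosen with earlier results of these data known. Sites named are the 8 largest rises and 8 largest falls, the 5 most used per genotype, and the proximal Igkv3 sites. Sites needed 50 junctions on average over the 6 libraries. The fit was tested on simulated counts for this comparison. When rises and falls balanced, or nothing was changed, it called no unchanged site. When they did not balance, it also called 69 unchanged sites among 111 tested, of which 30 had been changed, since the shares of unchanged sites had shifted (by -0.318 on the log2 scale). That simulated shift was not matched to the real data. The real comparison, with 5 sites missing from Ku70-/- cells, is unbalanced. Replicates differed beyond counting noise (chi-square per degree of freedom at least 11.3).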

Additional observations from a re-analysis of the deposited data

Results flagged for a closer look

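Under L67 as against DMSO, the V-J efficiency moved in opposite directions in the genotypes when every listed junction was counted. It rose by 3.21 percentage points in Ku70-/- cells and fell by 3.82 in WT cells, a difference of 7.03 (exact permutation p = 0.005, 0.055 after adjustment), with all 3 libraries on their own side in each genotype. The total number of listed junctions rose by 22562 in Ku70-/- cells and fell by 19831 in WT cells, a difference of 42393 (exact permutation p = 0.005, 0.055 after adjustment). Counted once each, both genotypes moved upward: the efficiency by 1.15 points in Ku70-/- and 0.067 in WT cells, and the total by 7251 and 450 junctions, with overlap in each (exact permutation p = 0.29 for both differences, 0.63 after adjustment). Both values were marked for the opposite movement in listed junctions, and their part in any effect of L67 was not tested. Both fail the adjustment. Without the DMSO library that the study does not list, the efficiency difference was 5.97 points (exact permutation p = 0.01, adjusted 0.11) and that of totals 36103 (exact permutation p = 0.005, adjusted 0.11).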

How the results depend on the processing

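Values here are Ku70-/- minus WT. Of 249 alternatives over 22 library measures, 239 kept the direction and 10 reversed it. Counting each distinct junction once gave 0.497 points of V-J efficiency, 5025 total junctions, 21.2 points of direct joints and -1.58 points of inversional share. With the 34 break sites found in Ku70-/- libraries, sTAD3 differed by -3.25 and inversional share by -8.63 points. Inversional share was -3.49 with coding joints only, -3.76 without the 5 proximal sites and -4.71 without them counted once. sTAD5 was 0.976 under the last of these. That setting, and 4 other alternatives, were added after seeing the data.

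Against DMSO, 12 differences of differences reversed. Without the unlisted DMSO library they were 2.02 (hybrid share), -0.401 (insertions), -1.95 (palindromic), 0.582 (sTAD3), -0.415 (sTAD5) and 0.00503 (Jκ region). Counted once they were 0.775 (hybrid share), -6.75 (insertions), -0.0123 (MH), 1.01 (sTAD4), -0.598 (sTAD5) and 3.85 (receptor share). Counted once without the unlisted library, the efficiency differed by 0.309 and the total by 1999.

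Sites higher and lower in usage numbered 9 and 8 with the DMSO libraries in the fit. Leaving out each library in turn gave 17 to 20 higher and 15 to 26 lower sites. Filtering at 50 junctions in either genotype gave 19 and 24. With a stricter minimum of junctions, 64 sites had a lower coding to hybrid ratio, since fewer were tested. Log2 differences reversed for Igkv12-44 (-0.11 with coding joints), Igkv3-12 (0.11 once, 0.17 coding), Igkv4-50 (0.32 once, -0.078 to 0.015 leaving out a library), Igkv1-117 (0.43 once, 0.19 coding, -0.14 to 0.054 leaving out a library) and Igkv3-1 (0.24 coding), none of which passed the test as reported. Igkv12-44 (0.84) and Igkv6-32 (0.28) passed when counted once, and Igkv3-12 (-0.31) and Igkv3-1 (-0.32) with the 5 sites out of the total. The causes were not tested. No paired analysis was possible because the labels give no replicate numbers.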
